A study of Mus musculus with 4 samples.

Results

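The genes described here are Lin28a, Lin28b, Trim71, Hmga1, Hmga2, Igf2bp1, Igf2bp2, Igf2bp3, Mycn and Myc, which regulate the let-7 microRNAs or are among their known targets. They were chosen by name, with earlier results of these data known. Every probe set that the array annotation assigns to one of them alone was read. Of the 10 genes, 8 have such a probe set, 23 in all, among 18193 genes and 45037 probe sets on the array. The expression of Hmga1 and Igf2bp2 was not analysed here.

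Expression was measured in 2 KSP-positive and 2 KSP-negative samples, 1 array each. KSP, kidney specific protein, is the cadherin encoded by Cdh16. Both fractions came from CAG-GFP EB3, a single mouse ES cell line of strain 129/Ola that expresses GFP from the ubiquitous CAG promoter. Both had been differentiated for 18 days with Activin at 10 ng/mL, first as embryoid bodies and then on gelatin-coated dishes. The KSP-positive sample holds GFP-positive cells that bound the anti-KSP antibody, and the KSP-negative sample holds GFP-positive cells that did not. A sorted fraction is a mixture of cell types, so fewer cells of a type and less RNA per cell cannot be told apart. The samples of each fraction came from 2 independent experiments.

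The proteins of this group belong to a circuit of early embryonic cells. Lin28a and Lin28b are RNA-binding proteins that hold back the maturation of let-7, and let-7 in turn silences Lin28 genes, Trim71, Hmga2, the Igf2bp genes and Myc genes through sites in their messengers. Lin28a is a known mark of pluripotent stem cells, and many of these genes are switched down as embryonic tissues mature.

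The microRNAs themselves were not measured on this array. Their sequences are given because the members are linked through them. Of the mature microRNAs of the family, the 11 shown here come from RefSeq (build GRCm38.p6), without the products of the other hairpin arm. They are shown with the seed, bases 2 to 8, in capitals.
let-7a: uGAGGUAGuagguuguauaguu
let-7b: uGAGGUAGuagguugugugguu
let-7c: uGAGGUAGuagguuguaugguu
let-7d: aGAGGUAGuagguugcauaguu
let-7e: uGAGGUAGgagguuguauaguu
let-7f: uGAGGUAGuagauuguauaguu
let-7g: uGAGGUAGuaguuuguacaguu
let-7i: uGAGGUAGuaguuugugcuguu
let-7j: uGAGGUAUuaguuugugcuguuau
let-7k: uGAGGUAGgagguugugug
miR-98: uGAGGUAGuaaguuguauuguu

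The seed GAGGUAG is shared by 10 of these 11, and let-7j differs from them in it. Of all 1679 mature mouse microRNAs that RefSeq names, 0.655% have this seed, and these include miR-1961, which is not in the list above.

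Lin28 proteins are known to bind the motif GGAG in the terminal loop of let-7 precursors. Of 11 let-7 family hairpins with both mature products listed, 8 (72.7%) hold GGAG between these products, against 8.07% of 644 mouse hairpins. The hairpins of let-7g (chr9:106178840-106178927, plus strand) and let-7a-1 (chr13:48538179-48538272, minus strand) hold it once, in capitals, and that of let-7b (chr15:85707319-85707403, plus strand) does not.
let-7g hairpin: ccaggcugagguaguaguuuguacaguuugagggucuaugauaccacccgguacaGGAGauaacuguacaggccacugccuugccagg
let-7a-1 hairpin: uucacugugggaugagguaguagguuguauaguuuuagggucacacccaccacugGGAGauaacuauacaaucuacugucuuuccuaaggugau
let-7b hairpin: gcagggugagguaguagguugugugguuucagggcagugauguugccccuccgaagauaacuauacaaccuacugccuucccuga

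Values are given as log2 of the MAS5 signal after scaling each array to a common 75th percentile. The signal is a relative brightness, so levels of different genes or probe sets are not compared as amounts of RNA. Where signals of a gene list are summed below, the sum is weighted toward its brightest probe sets. Signals under 12.3, a log2 value of 3.62, were raised to it. A probe set entered the tests across genes where its log2 signal averaged over 5.14, and each gene was read on the brightest of its probe sets, which gave 12849 genes. Of the 8 genes, 7 passed this filter, and Lin28b did not. Differences are KSP-positive minus KSP-negative, tested with limma, with the Benjamini-Hochberg correction over all genes tested.

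Lin28a, Trim71 and Mycn were lower in KSP-positive cells, and no member was called higher. These 3 of 7 members had an adjusted p under 0.05, where 1.65% of all genes tested were called lower and 1.84% called higher. Lin28a, Trim71, Mycn and Igf2bp3 were more than 2-fold lower (7.66% of all genes were), and the same 4 genes were lower without overlap between the fractions (24.6% of all genes). The test of Igf2bp3 did not pass (limma adjusted p = 0.176), and 4 of its 6 probe sets overlapped between the fractions. Myc was more than 2-fold higher, as 7.92% of all genes were, and without overlap, as 24.4% of all genes were, but its test did not pass. Hmga2 and Igf2bp1 overlapped between the fractions on their brightest probe sets, but 3 of the 4 Igf2bp1 probe sets were lower without overlap. The median difference of the 7 members was -1.05, and that of all genes was -0.03.

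**Figure D1:**
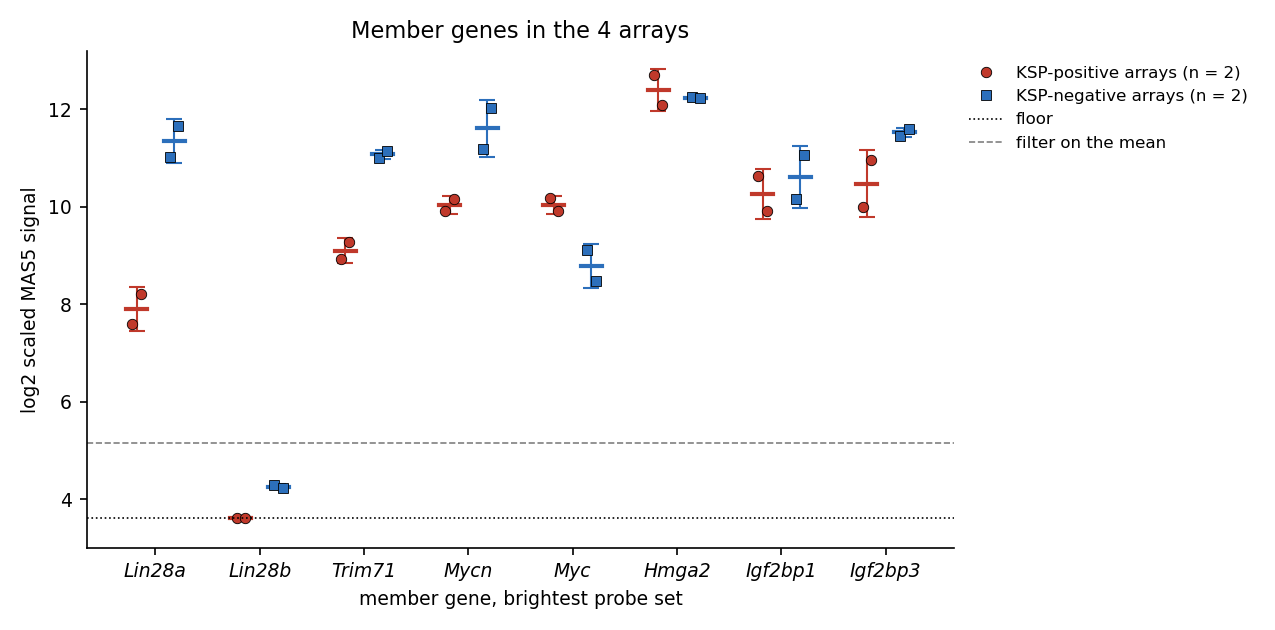
Log2 scaled MAS5 signal (vertical axis) of the brightest probe set of 8 member genes (horizontal axis), with red circles for KSP-positive and blue squares for KSP-negative arrays, bars for means and whiskers for the SD (n = 2); the dotted line is the floor and the dashed line the filter on the mean. Lin28a, Trim71, Mycn and Igf2bp3 lie lower in both KSP-positive arrays, Myc lies higher, and Hmga2 and Igf2bp1 overlap.

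Lin28a encodes the Lin28 protein of ES cells. Its brightest probe set, 1437752_at, had log2 signals of 7.59 and 8.21 in replicates 1 and 2 of the KSP-positive fraction and of 11.02 and 11.66 in those of the KSP-negative fraction. Both KSP-positive arrays thus lay far below both KSP-negative arrays. The means were 7.90 ± 0.44 (SD, n = 2) and 11.34 ± 0.45 (SD, n = 2), a 10.9-fold lower signal (difference -3.44, standard error 0.38, limma adjusted p = 0.00233). Only 0.187% of all genes tested had a difference as low as this or lower.

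The other Lin28a probe set, 1421749_at, was designed on the RefSeq transcript. It had log2 signals of 7.01 and 6.28 in the KSP-positive and of 7.36 and 8.61 in the KSP-negative replicates. It was lower in KSP-positive cells too, without overlap, but by a smaller step of -1.34 (standard error 0.52, limma adjusted p = 0.319 among all probe sets). The mean of both probe sets gave a difference of -2.39 (adjusted p = 0.0146).

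Lin28b, the paralogue that holds let-7 back in many fetal tissues and tumours, was dim on its only probe set. Both KSP-positive arrays were at the floor of 3.62, and the KSP-negative replicates had log2 signals of 4.29 and 4.22. Its mean was above that of only 18.2% of the probe sets on the array. It lay under the filter, so no fold or test is given.

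Trim71, the mouse counterpart of the nematode gene lin-41, is a let-7 target and an RNA-binding ubiquitin ligase of early embryos. Its probe set 1453599_at had log2 signals of 8.92 and 9.28 in the KSP-positive replicates and of 11.00 and 11.14 in the KSP-negative replicates. Replicates of a fraction lay close together, and the fractions stood well apart. The means were 9.10 ± 0.26 (SD, n = 2) and 11.07 ± 0.10 (SD, n = 2), a 3.93-fold lower signal in KSP-positive cells (difference -1.97, standard error 0.34, limma adjusted p = 0.0128). Without KSP-negative replicate 2 the difference was -1.90 and the adjusted p was 0.0584.

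The other Trim71 probe set, 1456673_at, gave a difference of the same size. It had log2 signals of 7.34 and 7.58 in the KSP-positive and of 9.42 and 9.44 in the KSP-negative replicates, a difference of -1.97 (standard error 0.36, limma adjusted p = 0.0579 among all probe sets). In that fit over probe sets the brighter Trim71 probe set had an adjusted p of 0.0458.

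Mycn encodes N-Myc, the Myc family transcription factor of many embryonic progenitors, and Myc encodes c-Myc, its relative in most dividing cells. Mycn had log2 signals of 9.91 and 10.16 in the KSP-positive replicates and of 11.19 and 12.02 in the KSP-negative replicates on its probe set 1417155_at. It was lower in both KSP-positive arrays. The means were 10.03 ± 0.18 (SD, n = 2) and 11.61 ± 0.59 (SD, n = 2), a 2.98-fold lower signal (difference -1.57, standard error 0.37, limma adjusted p = 0.0450). This call was close to the threshold. Its adjusted p was 0.230 without KSP-negative replicate 2 (difference -1.16), 0.140 without KSP-positive replicate 1 (difference -1.45) and 0.154 with its probe sets averaged (difference -0.96).

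The remaining Mycn probe sets, 1425922_a_at and 1425923_at, were dimmer, with differences of -0.58 and -0.72. Neither passed the test among all probe sets (limma adjusted p = 0.645 and 0.572), and both were lower in KSP-positive cells without overlap.

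Myc went the other way. Its only probe set, 1424942_a_at, had log2 signals of 10.17 and 9.91 in the KSP-positive replicates and of 9.11 and 8.47 in the KSP-negative replicates, so both KSP-positive arrays were above both KSP-negative arrays. The means were 10.04 ± 0.18 (SD, n = 2) and 8.79 ± 0.45 (SD, n = 2), a 2.39-fold higher signal that did not pass the test (difference 1.26, 95% confidence interval 0.45 to 2.06, limma adjusted p = 0.0952). Differences as high as this or higher were found in 4.85% of all genes tested. The difference of Myc was 0.94 without KSP-negative replicate 2 and 1.57 without KSP-negative replicate 1.

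The difference of Myc exceeded that of Mycn by 2.83 on the log2 scale. The signal of Myc relative to Mycn did not overlap between the fractions. An exact permutation test of 2 against 2 arrays, two-sided, gave p = 0.333, the smallest it allows, so these arrays cannot decide this contrast by that test. It was 1 of 4 such contrasts computed, each with this p.

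**Figure D2:**
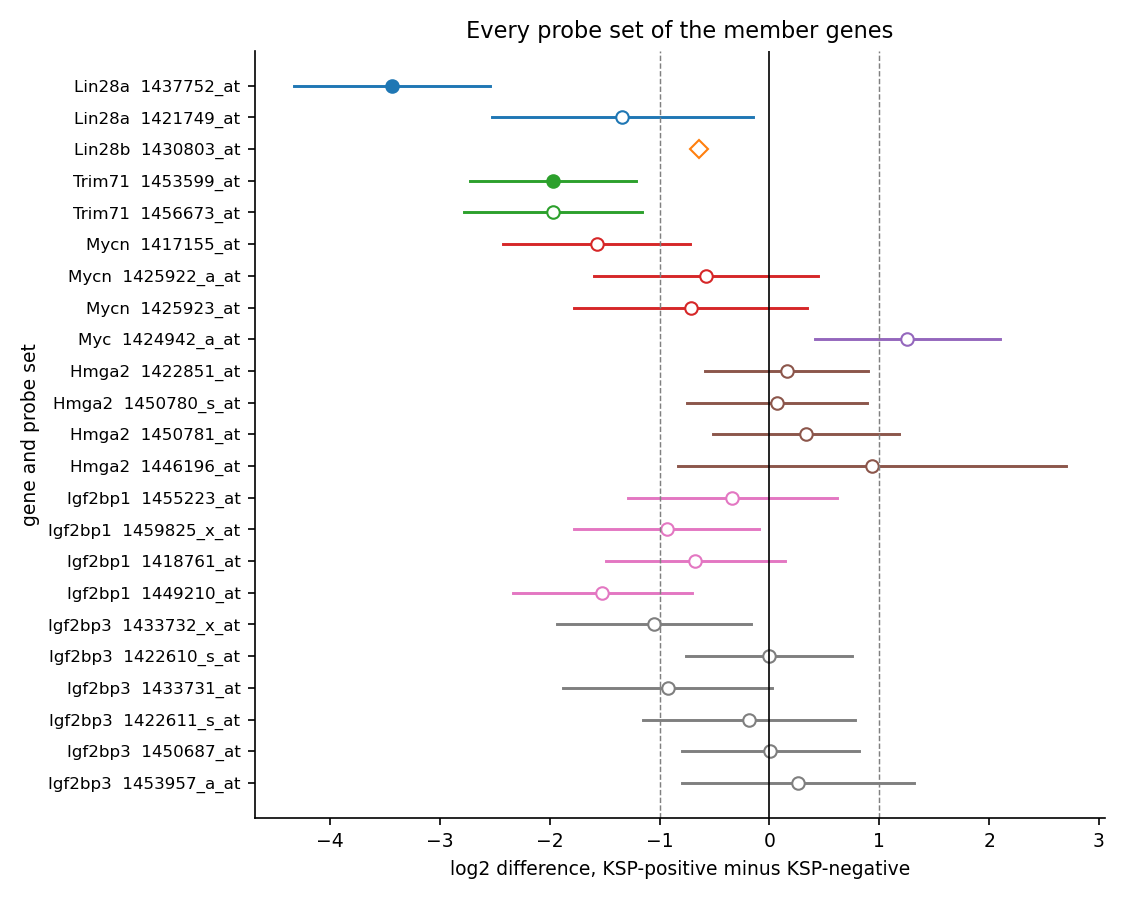
Log2 difference, KSP-positive minus KSP-negative (horizontal axis, n = 2 arrays each), of the 23 member probe sets (vertical axis), with lines for the 95% confidence interval from limma; filled points have an adjusted p under 0.05 among all probe sets, open circles do not, and the diamond is the Lin28b probe set, which lay under the filter. The Lin28a, Trim71 and Mycn probe sets lie left of 0, the Myc probe set lies right of 0, and the Igf2bp3 probe sets divide.

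Hmga2 is an architectural chromatin protein of embryonic and mesenchymal cells and a much studied let-7 target. Its brightest probe set, 1422851_at, had log2 signals of 12.69 and 12.09 in the KSP-positive replicates and of 12.25 and 12.22 in the KSP-negative replicates. The KSP-negative arrays lay between the KSP-positive ones. The difference was 0.16 (standard error 0.33, 95% confidence interval -0.57 to 0.89, limma adjusted p = 0.860), an interval that, on this probe set, leaves out a 2-fold change in either direction. Without KSP-positive replicate 1 its sign turned, with a difference of -0.14.

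All 4 Hmga2 probe sets overlapped between the fractions, with differences from 0.07 to 0.93. The largest of these was on the dimmest probe set, 1446196_at, with log2 signals of 8.47 and 6.71 in KSP-positive and of 7.74 and 5.58 in KSP-negative cells. There the replicates of 1 fraction differed by more than the fractions did (limma adjusted p = 0.672 among all probe sets). The difference of Hmga2 exceeded that of Lin28a by 3.60 and that of Trim71 by 2.13 on the log2 scale, without overlap between the fractions (exact permutation p = 0.333, the smallest possible, for each).

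The Igf2bp genes encode RNA-binding proteins that bind Igf2 and other messengers in fetal cells. The probe sets of Igf2bp1 and Igf2bp3 differed among themselves, and none passed the test. Igf2bp1 had log2 signals of 10.63 and 9.90 in KSP-positive and of 10.16 and 11.05 in KSP-negative cells on its brightest probe set, 1455223_at, so the fractions overlapped. The difference was -0.34 (95% confidence interval -1.24 to 0.56, limma adjusted p = 0.727). It turned to 0.11 without KSP-negative replicate 2 and to 0.03 without KSP-positive replicate 2, and it was -0.79 without KSP-negative replicate 1. With its probe sets averaged the difference was -0.87, without overlap between the fractions (limma adjusted p = 0.195).

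The other 3 Igf2bp1 probe sets were lower in both KSP-positive arrays. On 1449210_at the log2 signals were 7.93 and 7.90 in KSP-positive and 9.26 and 9.62 in KSP-negative cells, a difference of -1.52 (standard error 0.36, limma adjusted p = 0.111 among all probe sets). The remaining pair had differences of -0.67 and -0.94. The probe set 1418761_at, with the difference of -0.67, was designed on the same sequence as 1449210_at.

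Igf2bp3 had log2 signals of 9.99 and 10.96 in KSP-positive and of 11.45 and 11.59 in KSP-negative cells on its brightest probe set, 1433732_x_at. Both KSP-positive arrays were lower, and KSP-positive replicate 1 was lowest. The difference was -1.05 (95% confidence interval -1.89 to -0.20, limma adjusted p = 0.176), and leaving out KSP-positive replicate 1 brought it to -0.56, leaving out KSP-positive replicate 2 to -1.54.

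Of the 6 Igf2bp3 probe sets, 2 were lower without overlap and 4 overlapped. The lower pair, 1433732_x_at and 1433731_at, was designed on 1 and the same sequence, and the ending x of the former marks probes that can match other transcripts. The overlapping ones included 3 designed on the RefSeq transcript. Of these, 1422610_s_at had log2 signals of 10.70 and 10.87 in KSP-positive and of 10.56 and 11.03 in KSP-negative cells, a difference of -0.01 (95% confidence interval -0.76 to 0.75). With the mean of all its probe sets the difference of Igf2bp3 was -0.32. Which probe sets follow the messenger was not tested.

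Over all 23 probe sets, 13 were lower and 1 was higher in KSP-positive cells without overlap, where 18.3% and 16.1% of all probe sets on the array were. Of the 22 that passed the filter, 2 were called lower and 0 higher by limma, against 0.296% and 0.307% of the probe sets tested. Probe sets of 1 gene read the same RNA and are not independent of each other.

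**Figure D3:**
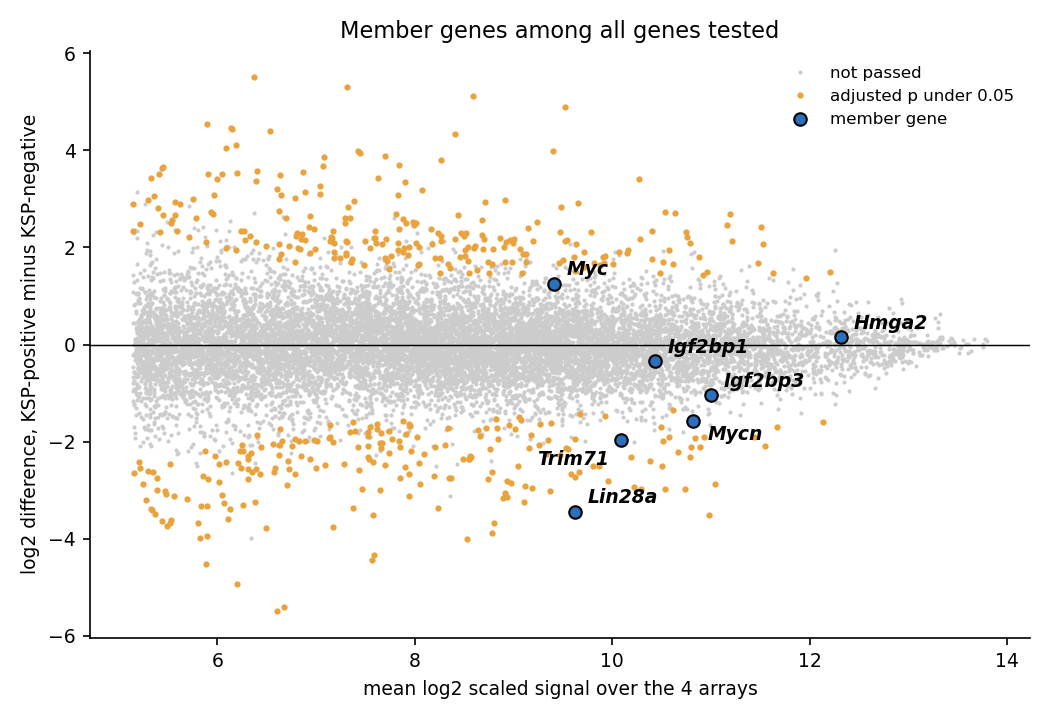
Log2 difference, KSP-positive minus KSP-negative (vertical axis), against the mean log2 scaled signal over the 4 arrays (horizontal axis) for the 12849 genes tested, with the 7 tested members in blue and genes with an adjusted p under 0.05 in orange. Lin28a lies lowest of the members at -3.44 and Hmga2 is close to 0.

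Genes that make or destroy microRNAs did not pass the test in either direction. Of 23 genes of microRNA and let-7 processing, all 23 were tested and 0 were called in the limma fit, with a median difference of -0.20 (-0.31 if KSP-positive replicate 2 was left out, -0.12 if KSP-negative replicate 2 was). The smallest p belonged to Ago1, an Argonaute protein, with a difference of -1.03 (limma adjusted p = 0.225). Tut4, the uridyl transferase that Lin28a recruits to let-7 precursors, had log2 signals of 11.84 and 11.21 in KSP-positive and of 10.93 and 10.86 in KSP-negative cells (difference 0.63, limma adjusted p = 0.373). Its values did not overlap between the fractions.

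Other known let-7 targets were not called either. Of 36 listed, 33 were tested and 0 passed the limma test, with a median difference of -0.31. Of these 33, 5 were more than 2-fold lower and 0 more than 2-fold higher, against 7.66% and 7.92% of all genes tested. The KSP-positive mean of 1 of the 5 was 4.98, under the 5.14 set for means, so it passed the filter through the KSP-negative arrays. Without KSP-positive replicate 2 the number called lower was 2 and the median was -0.0043 on the log2 scale, and without KSP-negative replicate 1 the number was 1 and the median -0.50. Without KSP-negative replicate 2 the median was -0.12. Nr6a1, a nuclear receptor that represses Oct4 in differentiating cells, had a difference of -1.63 (limma adjusted p = 0.0573). Prtg, a receptor of early embryonic epithelia, had a difference of -1.23 (limma adjusted p = 0.0952). Among 3 tested host transcripts of let-7 genes 0 were called, their median of 0.06 ran from -0.15 to 0.41 with 1 array left out, and Mir99ahg had log2 signals of 6.51 and 7.29 in KSP-positive and of 5.49 and 5.32 in KSP-negative cells (difference 1.49, limma adjusted p = 0.128). A host transcript was read here as a gene of its own, and says nothing of the level of a microRNA.

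Mycl, which encodes L-Myc, the relative of Myc and Mycn, was lower in KSP-positive cells. Its log2 signals were 4.05 and 5.14 in KSP-positive and 8.33 and 8.42 in KSP-negative cells. Both KSP-positive values lay under the 5.14 set for means, so Mycl passed the filter through the KSP-negative arrays, and no fold, difference or p is given. Mycl was the 1 gene called among 21 tested genes of the Myc network, which had a median difference of -0.38 (-0.54 to -0.25 with 1 array left out), and leaving out KSP-positive replicate 2 made that count 3 and leaving out KSP-negative replicate 1 made it 2. Max, the partner that Myc proteins need to bind DNA, had a difference of -1.58 (limma adjusted p = 0.125). Of 22 known Myc target genes of growth, Ppat, which opens purine synthesis, fell by 2.25 on the log2 scale (limma adjusted p = 0.00970), 0 rose and 21 did not pass, and the list had a median difference of -0.66, which was -0.33 without KSP-negative replicate 2 and -0.41 without KSP-positive replicate 1. Of these 22 genes, 0 were called without KSP-negative replicate 2 and 3 without KSP-positive replicate 2 or without KSP-negative replicate 1.

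The sequence CACGTG is the E-box that Myc and Max are known to bind. Promoters of 8 members are in the RefSeq table, all but those of Igf2bp1 and Myc and thus with those of Hmga1 and Igf2bp2, each from 250 bases before to 50 bases after a gene's start, and those of Lin28b and Igf2bp3 hold CACGTG, which reads alike on both strands. Of all 32851 mouse promoters listed there, 7.15% hold it. The promoter of Igf2bp3 holds it at 2 places, of which the upstream one is shown with that of Lin28b, each within 60 bases and with the motif in capitals (GRCm38.p6, minus strand, chr6:49214955-49215014 and chr10:45470218-45470277).
Igf2bp3 promoter: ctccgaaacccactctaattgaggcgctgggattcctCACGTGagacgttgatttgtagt
Lin28b promoter: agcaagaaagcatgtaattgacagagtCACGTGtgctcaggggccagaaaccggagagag
The motifs begin 23 and 49 bases before the start. A match describes these letters only. The octamer ATGCAAAT, searched on both strands, was in 1.74% of all promoters and, among these 8 members, in that of Hmga1 alone.

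Markers of undifferentiated ES cells were lower in the same arrays as Lin28a, Trim71 and Mycn. Of 14 tested ES cell markers, 13 fell, 0 rose and Gdf3 did not pass, with a median difference of -3.51. Nanog had log2 signals of 3.62 and 4.34 and Utf1 of 5.10 and 4.13 in KSP-positive cells, under the 5.14 set for means. These genes thus passed the filter through the KSP-negative arrays. Without KSP-negative replicate 2, 8 of the 14 were called. The summed signal of the 14 was 2386 and 2880 in the KSP-positive and 16708 and 33958 in the KSP-negative replicates. Pou5f1, which encodes Oct4, had log2 signals of 5.37 and 5.48 in KSP-positive and of 9.15 and 10.36 in KSP-negative cells. Of primordial germ cell markers, some of which ES cells express too, 3 of 7 fell (1 without KSP-negative replicate 2), with summed signals of 1328 and 1474 against 3150 and 6281. Prdm14 of the germ cell list had a KSP-positive mean of 4.76, also under 5.14, and passed the filter through the KSP-negative arrays. The part of either cell type in the lower signals of Lin28a, Trim71 and Mycn was not tested.

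Within the KSP-negative fraction all 14 ES cell markers were higher in replicate 2 than in replicate 1, by a median of 1.23 on the log2 scale. Lin28a was higher there by 0.64, Mycn by 0.83 and Trim71 by 0.14, and Myc was lower by 0.64. The step in Trim71 was thus the smallest of these, and Myc moved against the others both between the fractions and within the KSP-negative fraction. With a pair of arrays these are descriptions of single samples.

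**Figure D4:**
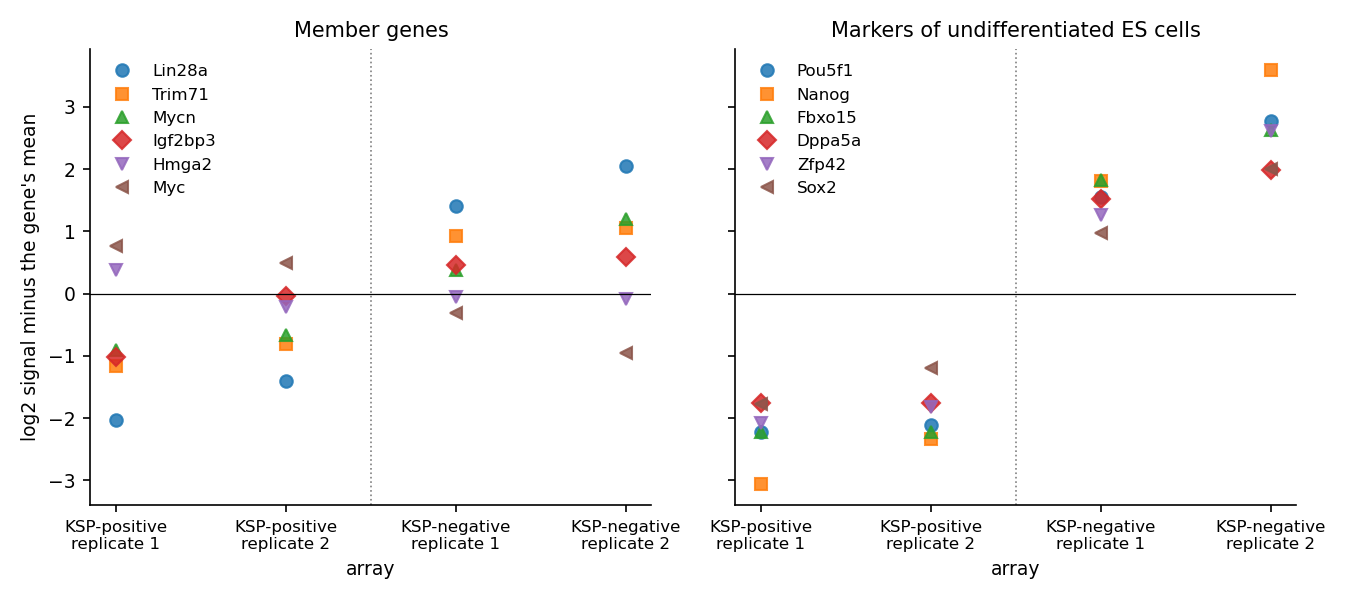
Log2 signal minus the gene's mean over the 4 arrays (vertical axis) by array (horizontal axis), for 6 member genes (left) and 6 markers of undifferentiated ES cells (right). Lin28a, Trim71, Mycn and Igf2bp3 lie on the same side of 0 as the ES cell markers in every array, Myc lies on the other side, and Hmga2 shows no step between the fractions.

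The 5 genes whose profile over the 4 arrays was closest to that of Lin28a, by Euclidean distance of log2 signals centred on each gene's mean, were Cldn7, Chmp4c, Hsf2bp, Dppa5a and Epcam. Hsf2bp was at the floor in KSP-positive replicate 1 and at 3.64 in replicate 2, and Chmp4c had log2 signals of 3.62 and 4.27 there. Hsf2bp and Chmp4c thus lay under the 5.14 set for means in both KSP-positive arrays and passed the filter through the KSP-negative arrays. The distances ran from 0.34 to 0.47, and 6 of the genes tested lay within 0.5. Cldn7 and Epcam belong to epithelial adhesion, and Dppa5a is an RNA-binding protein of pluripotent cells. The profile of Hmga2, which is nearly level, had 1999 genes within that distance. Nos1ap, Srp68, Tacr2, Dmac2l and C2cd2l were closest to it, at distances from 0.02 to 0.04. The arrays that set these distances also set the differences above, so the likeness adds no test.

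Markers listed for other cell types moved with the fractions as well, and which cells expressed them was not tested. Of 14 tested macrophage and leukocyte genes 12 rose and 0 fell (median difference 3.01, summed signals of 30231 and 14093 in KSP-positive against 2699 and 3076 in KSP-negative cells). C1qa, a complement chain, was at the floor in both KSP-negative arrays. Fcgr1 (log2 signals of 4.19 and 3.62) and C1qc (5.06 and 3.62) also lay under the 5.14 set for means there. C1qa, Fcgr1 and C1qc thus passed the filter through the KSP-positive arrays. Of 14 mesenchymal genes 7 rose and 0 fell (median 1.88, summed signals of 91889 and 68123 against 41915 and 26625), but 1 was called without KSP-negative replicate 2. Of 13 epithelial genes 8 fell and 0 rose (median -2.26, summed signals of 8701 and 10981 against 24400 and 31782). The epithelial median was the difference of Esrp2, which was not called and whose KSP-positive mean of 4.46 lay under 5.14. The part of these cell types in the higher signal of Myc, in the overlapping signals of Hmga2 or in the lower signals was not tested.

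Proliferation genes are given because Myc family genes are known to follow growth. Of 11 tested, 0 were called in the limma fit, with a median difference of -0.62 and summed signals of 21761 and 23744 in KSP-positive against 24251 and 38365 in KSP-negative cells. Without KSP-positive replicate 2, 1 of the 11 was called lower, and their median was -0.13 without KSP-negative replicate 2 and -0.36 without KSP-positive replicate 1. Endothelial genes had 0 of 9 called in the limma fit, and their median of 0.24 had no stable sign, being 1.20 and -0.69 without KSP-positive replicates 1 and 2 (1 gene was called lower in the latter) and 0.84 and -0.28 without KSP-negative replicates 1 and 2. The limma fit called among neural genes 1 of 8, Stmn2, which fell (median -0.63), and among genes of the renal tubule and ureteric bud 1 of 6, Lhx1, which fell (median 0.03). Neither list had a call without KSP-negative replicate 2, and the neural list had 0 without KSP-negative replicate 1 and 2 without KSP-positive replicate 2. With 1 array left out the neural median ran from -1.58 to -0.17 and the renal one from -0.10 to 0.15. Cdh16, the gene of the sorted antigen, had log2 signals of 5.66 and 5.03 in KSP-positive and of 5.30 and 4.71 in KSP-negative cells (difference 0.34, limma adjusted p = 0.816), so the messenger of the antigen that defined the fractions overlapped between them, at a level just above the filter.

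**Figure D5:**
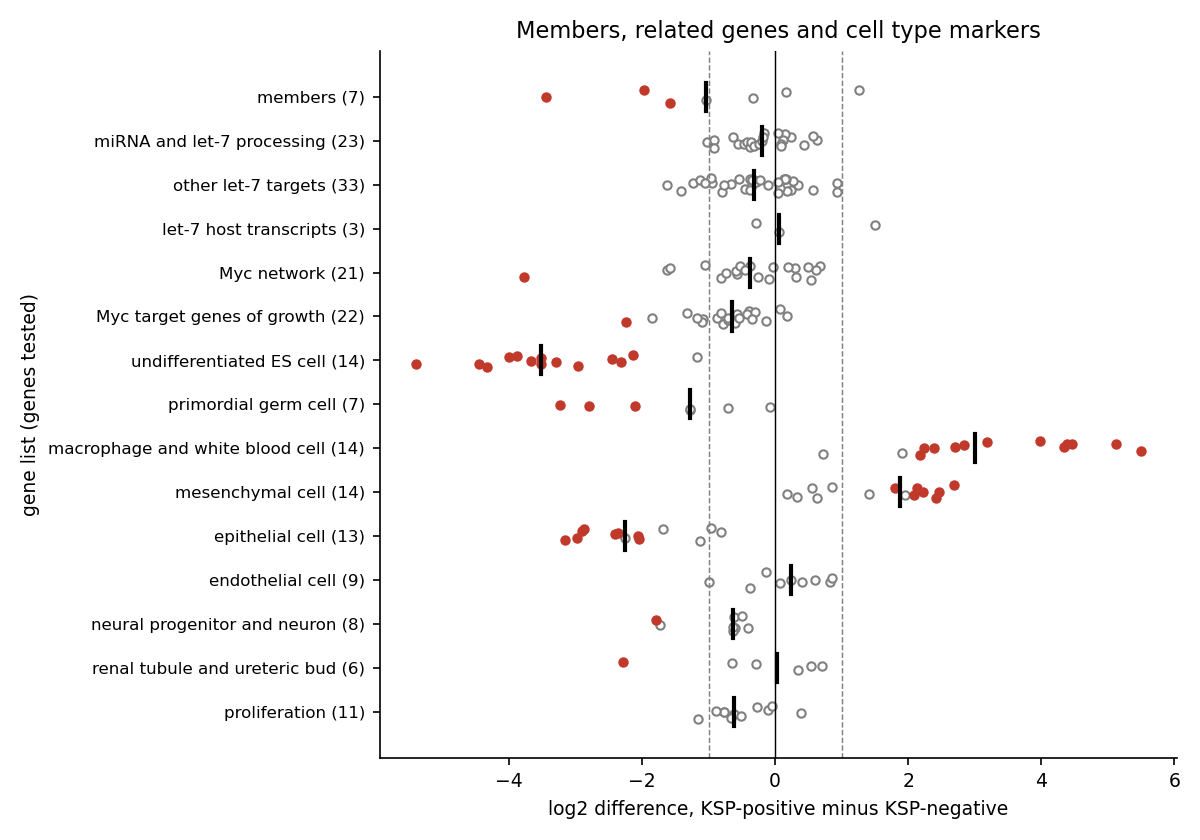
Log2 difference, KSP-positive minus KSP-negative (horizontal axis, 2 arrays a fraction), for the tested genes in each of 15 lists (vertical axis, number tested in parentheses); limma called the filled red points (adjusted p under 0.05) and not the open ones, each black bar is a list's median, and 2-fold steps are dashed. The members spread from -3.44 to 1.26, while no gene of microRNA processing and no other let-7 target is called, and those past the 2-fold steps in these lists all lie on the lower side.

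Across genes, which are not independent replicates, log2 signals correlated at 0.945 between replicates of either fraction and at 0.856 to 0.921 between fractions. The 3′ over 5′ actin signal, a measure of how far RNA was degraded or labelled short, was highest in KSP-positive replicate 1 (2.92) and KSP-negative replicate 2 (3.55), and 1.80 and 1.79 in the remaining arrays. The higher values were thus found in 1 array of each fraction. With any 1 array left out, the difference of Lin28a lay between -3.76 and -3.12 and that of Trim71 between -2.15 and -1.79.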

How the data were processed

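RNA of 2 KSP-positive and 2 KSP-negative samples was hybridized to Affymetrix Mouse Genome arrays after 2-cycle labelling with biotin. The authors deposited signal intensities on a linear scale, which the processing notes credit to MAS5. The methods name GeneSpring without its settings, so arrays were scaled to a common 75th percentile (a signal of 281), values were floored at the 20th percentile of all values, log2 values were taken, probe sets above the 40th percentile of means were kept and the brightest stood for its gene. Of 45037 probe sets besides 64 controls, 34945 have 1 gene in the annotation, 932 several and 9160 none. Fractions were tested with R 4.3.3 and limma 3.58.1, using trended empirical Bayes moderation and Benjamini-Hochberg correction, and the procedure was tested on simulated data. Arrays, not counts, limit the precision. No 2 arrays held identical values.

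The members and the 15 gene lists were chosen with earlier results of these data known. Genes named were all members, up to 4 of each list with the smallest p, and the 5 nearest profiles to Lin28a and Hmga2. Tut4, Gdf3, Utf1, C1qc, Esrp2 and Cdh16 fall outside this rule and were chosen after their values were seen. No source ties replicate numbers to the experiments, so arrays were not paired. Sequences come from RefSeq tables of GRCm38.p6, and figures were drawn with matplotlib 3.10.9.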

Additional observations from a re-analysis of the deposited data

How the results depend on the processing

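Across 16 alternatives Lin28a, Trim71, Igf2bp3, Mycn and Myc kept the sign of their difference. The count of members called lower, 3, was 0 with no filter on dim probe sets and 0 with the methods' t-test after Benjamini-Hochberg adjustment, both of which called 0 of all genes in either direction (1184 higher and 1091 lower at an unadjusted limma p under 0.05 without the filter, and 666 and 570 at an unadjusted p under 0.05 in the methods' t-test, Lin28a and Trim71 among the latter). Leaving out 1 array at a time it ran from 1 to 3, being 1 without KSP-negative replicate 2. Members more than 2-fold lower numbered 2 in place of 4 when all probe sets of each gene were averaged, and 3 to 4 with 1 array left out. Leaving out 1 array at a time, members more than 2-fold higher ran from 0 to 1 and members higher without overlap from 1 to 2. The differences of Hmga2 and Igf2bp1 turned sign, to -0.14 for Hmga2 without KSP-positive replicate 1 and to 0.03 and 0.11 for Igf2bp1 without KSP-positive replicate 2 and KSP-negative replicate 2, within ranges of -0.14 to 0.46 and of -0.79 to 0.11 when 1 array was left out. The Mycn call was lost in 7 of 16 alternatives (limma adjusted p = 0.0928 without the intensity trend and 0.114 with every probe set alone), that of Trim71 in 3 and that of Lin28a in 2. The causes were not tested.

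With the replicate number as a block, 1 member was called higher, Myc (limma adjusted p = 0.0194), and the 3 lower calls were kept, while 571 genes rose and 560 fell in place of 236 and 212. Same-numbered arrays deviated together only weakly (correlation 0.166 across genes), with 2 pairs. Without KSP-negative replicate 2, 72 genes rose and 52 fell, and without KSP-positive replicate 2, 368 and 424. As deposited, 352 fell.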
